A study of Homo sapiens with 6 samples.

Results

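The genes described here encode 9 glycosyltransferases that start or finish the outer chains of glycoproteins and glycolipids: B3GALT1, B3GALT2, B3GALT5, B3GNT5, B4GALNT2, B4GALNT3, B4GALNT4, ABO and A4GNT. They were chosen by function, as the enzymes of the type 1 chain, the Sda antigen, LacdiNAc, the ABO blood group and the alpha-linked N-acetylglucosamine cap of gastric mucin. A probe set belonged to a gene when the RefSeq accession inside its identifier, without the version, named that gene. All 9 genes had a probe set and none had more than 1, so they make up 9 of the 1259 probe sets on the array, which cover 927 named genes.

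The cells were HCT116, an established line of colorectal cancer whose DNA mismatch repair is defective, which makes it microsatellite-unstable. By the sample titles they carried wild-type ACVR2, an activin receptor gene, under doxycycline control, whereas the source names mention AIM2 and TGFBR2 beside it as inducible. Expression was measured on 3 arrays from cells given doxycycline and activin A (+DOX) and on 3 arrays from cells given activin A without doxycycline (-DOX). The comparison asks which glycan genes differ when the receptor is switched on. Activin A was present in both groups, and no cells without the inducible gene were given doxycycline, so the drug and the receptor cannot be told apart. The labels name no clone, dose or induction time and do not say that replicates were separate cultures, so each p-value rests on a spread between samples that could be purely technical.

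Glycans are built by enzymes that each add 1 sugar in 1 linkage, so the set of enzymes a cell makes decides which chain ends it can carry. A galactose added to N-acetylglucosamine gives either a type 1 chain, common in the gut lining, or a type 2 chain, and Lewis a antigens form on type 1 chains. The Sda and blood group A and B structures are caps on finished chains. In the colon B3GALT5 is the main type 1 chain enzyme, and both its expression and the Sda antigen are reported to decline in many colorectal cancers.

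Values are log2 expression after RMA, a procedure that removes background, gives all arrays 1 common distribution and merges the probes of each set into 1 value. The array medians lay between 7.61 and 7.65 and the lower quartiles between 6.85 and 6.89. No detection calls were used, so whether a low value stands above background is unknown, and levels are not compared between genes. The -DOX replicate 3 stood apart, with correlations of 0.982 to 0.991 to the other 5 arrays, against 0.995 to 0.999 among those 5. The probe set of ACVR2A, the gene meant to be induced, read 8.08 ± 0.07 with doxycycline and 8.34 ± 0.32 without (SD, n = 3 each), so it gives no check of the labels. It is not known whether its probes lie in the introduced sequence. Of 10 colon epithelial markers only LGALS4 and MUC2 were measured, at 7.30 ± 0.05 and 7.27 ± 0.03 with doxycycline and 7.30 ± 0.03 and 7.29 ± 0.04 without (SD, n = 3 each). Of 10 markers of blood, vessel, stromal and nerve cells 9 were measured, and their differences between the groups lay between -0.09 and 0.06.

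Among the 9 genes, B4GALNT4 had the largest difference, with lower values on the +DOX arrays, and B3GNT5 had the widest range over the 6 arrays, set by the -DOX arrays. The other 7 genes spanned no more than 0.21 log2 units between their lowest and highest array. None of the 9 passed the test: limma gave adjusted p-values over all 1259 probe sets from 0.656 to 0.977. The same fit called 0 probe sets on the whole array (0% at an adjusted p of 0.05), and 98 (7.78%) at an unadjusted p of 0.05. At that unadjusted level 0 of the 9 were called, although B3GALT2 and B4GALNT4 both were with array weights or with a trended, robust eBayes fit. Of all 1259 probe sets, array weights called 246 at that level and the trended, robust fit 111. With 1 array left out B3GALT2 was called without -DOX replicate 2, and B4GALNT4 without -DOX replicate 3 or without +DOX replicate 3. In that order, leaving out those arrays called 258, 125 and 73 of the 1259 probe sets. In the mean 2 genes were higher with doxycycline and 7 lower; their median difference was -0.04 log2 units, while over all probe sets the median was -0.0081 and 45.4% were higher. Without -DOX replicate 3 the median was -0.02 both for the 9 genes, with 3 higher and 6 lower, and for all probe sets. With array weights the median of the 9 genes turned to 0.0042.

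**Figure D1:**
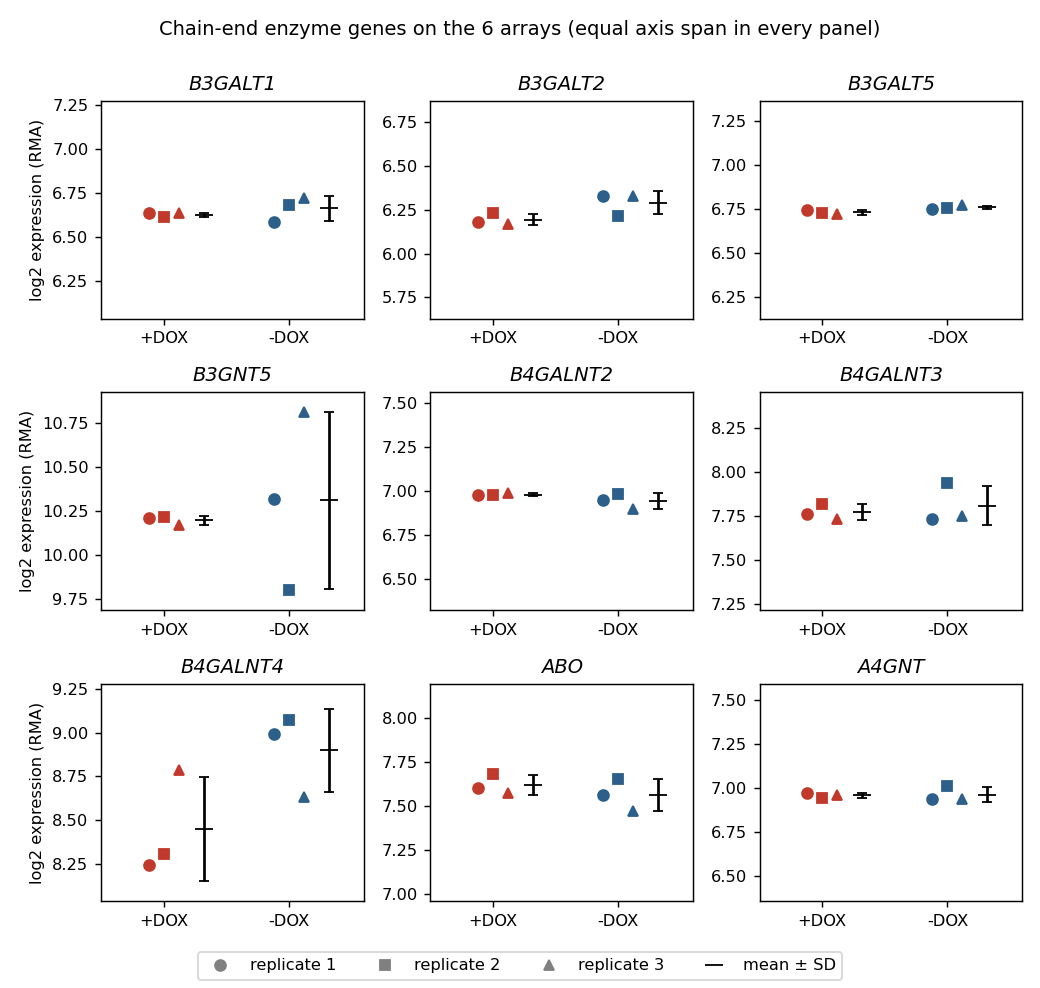
Log2 expression of each of the 9 genes on the 3 +DOX arrays (red, left) and the 3 -DOX arrays (blue, right), with the group mean and SD in black; every panel spans the same number of log2 units. B3GNT5 lay between 10.17 and 10.21 on the +DOX arrays and between 9.80 and 10.81 on the -DOX arrays, B4GALNT4 overlapped between the groups, with a +DOX array at 8.79 and a -DOX array at 8.63, and the other 7 genes spanned no more than 0.21.

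The genes of the enzymes that make type 1 chains differed by no more than 0.10 log2 units between the group means. B3GALT5 read 6.745, 6.726 and 6.723 on +DOX replicates 1, 2 and 3, against 6.752, 6.756 and 6.771 on -DOX replicates 1, 2 and 3. It was the single gene of the 9 whose groups did not overlap, with all +DOX arrays below all -DOX arrays, but the gap between the groups was 0.0063 log2 units. Over the whole array 104 probe sets (8.26%) were fully separated in this direction and 95 (7.55%) in the other, so 1 gene in 9 is near the background. The difference was -0.03 (SE 0.03, 95% confidence interval -0.10 to 0.05; limma, adjusted p = 0.747). By exact permutation the two-sided p was 0.1, the smallest that 3 arrays against 3 can give. Its range over the 6 arrays, 0.0481 log2 units, was wider than that of only 1.43% of probe sets.

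B3GALT1 and B3GALT2 encode sister enzymes that also add galactose to N-acetylglucosamine. B3GALT1 read 6.63, 6.61 and 6.63 on the +DOX arrays, against 6.59, 6.68 and 6.72 on the -DOX arrays. The -DOX values lay on both sides of the +DOX values, and the difference was -0.04 (SE 0.05; limma, adjusted p = 0.779). It was -0.0059 without -DOX replicate 3 and -0.07 without -DOX replicate 1. B3GALT2 read 6.18, 6.23 and 6.17 with doxycycline, against 6.33, 6.21 and 6.32 without. Here -DOX replicates 1 and 3 lay above every +DOX array while replicate 2 lay among them, and the difference was -0.10 (SE 0.05, 95% confidence interval -0.21 to 0.02; limma, adjusted p = 0.682). All 3 galactosyltransferase genes lay under the lower quartile of the array on each of the 6 arrays, so these are dim signals, of which an unknown part may be background. For the same reason a flat reading does not show that the enzyme's transcript was level.

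**Figure D2:**
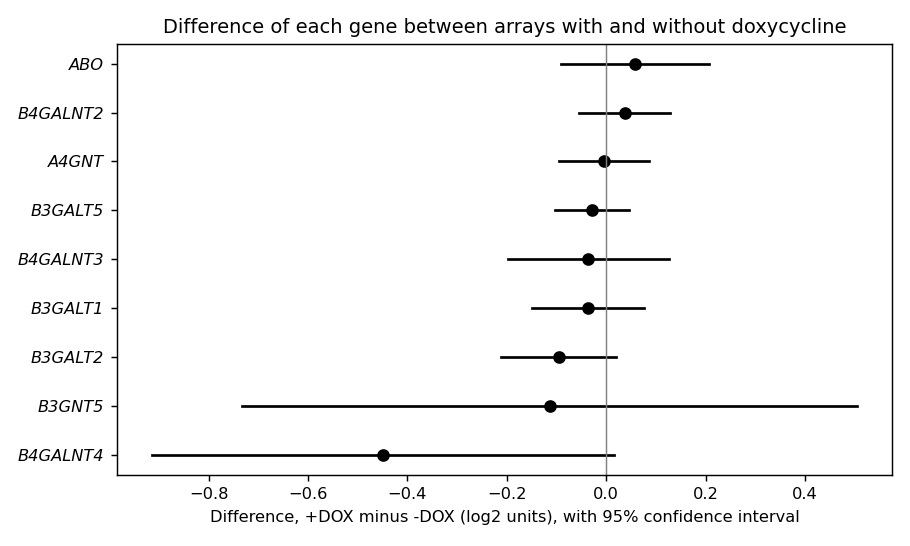
Difference in log2 expression, +DOX minus -DOX, for the 9 genes (points), with the 95% confidence interval from limma (bars). Every interval crosses 0; that of B4GALNT4 runs from -0.91 to 0.02 and that of B3GNT5 from -0.73 to 0.51.

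B3GNT5 encodes the N-acetylglucosaminyltransferase that extends lactosylceramide to lactotriaosylceramide, the root from which lacto-series (type 1) and neolacto-series (type 2) glycolipids grow. It read 10.21, 10.21 and 10.17 on the +DOX arrays, against 10.32, 9.80 and 10.81 on the -DOX arrays. The +DOX arrays lay together inside the range of the -DOX arrays, whose replicate 3 was the highest of the 6 and replicate 2 the lowest. The means were 10.20 ± 0.03 with doxycycline and 10.31 ± 0.51 without (SD, n = 3 each). The difference was -0.11 (SE 0.25; limma, adjusted p = 0.884), and its 95% confidence interval allows anything from 1.66-fold lower to 1.42-fold higher with doxycycline. Its sign depended on 1 array: without -DOX replicate 3 it was 0.14, and without -DOX replicate 2 it was -0.37 (limma, adjusted p = 0.831 and 0.259).

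The spread of B3GNT5 was uneven to a degree that few probe sets shared. Its SD with doxycycline was larger than that of 20.6% of probe sets, and its SD without doxycycline was larger than that of 96.3%. The -DOX SD was 20.0 times the +DOX SD, and 20 of the 1259 probe sets, itself among them, had a ratio at least as large. A wider spread without doxycycline was common on this array, seen in 77.1% of all probe sets and in 7 of the 9 genes. These SDs come from 3 arrays each, and -DOX replicate 3, which stood apart from the rest, is 1 of them. Its part in the spread of B3GNT5 was not tested. The -DOX replicates 1 and 2, at 10.32 and 9.80, also lay further apart than the +DOX arrays, at 10.17 to 10.21. On -DOX replicate 3 B3GNT5 was 0.67 log2 units above the mean of the other 5. The median size of that deviation over all probe sets was 0.106.

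**Figure D3:**
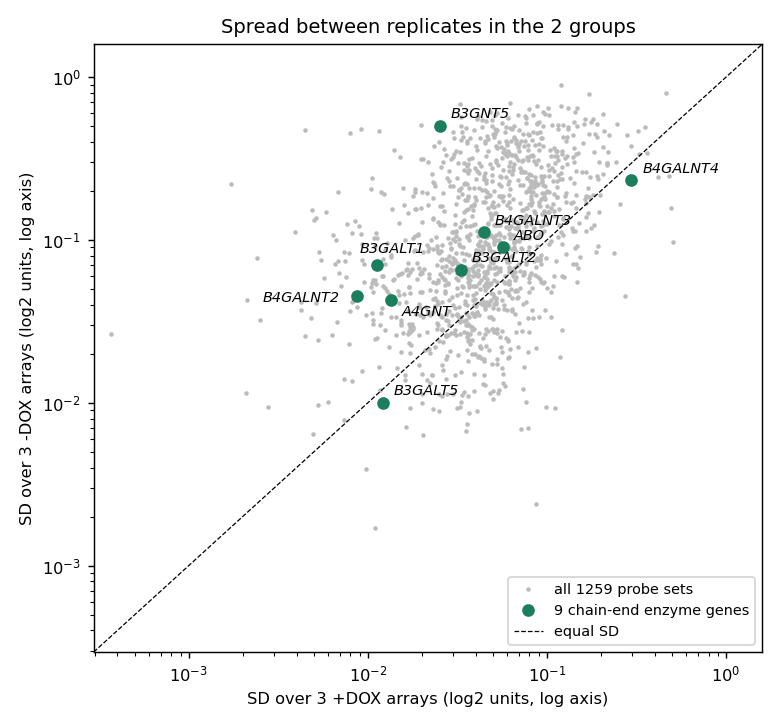
SD over the 3 +DOX arrays (horizontal) against SD over the 3 -DOX arrays (vertical), both in log2 units on log axes, for 1259 probe sets (grey) and the 9 genes (green); the dashed line marks equal SD. B3GNT5 lies far above the line, with SDs of 0.0253 and 0.505, while B4GALNT4 (0.296 and 0.235) and B3GALT5 (0.0122 and 0.0100) lie just below it.

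LacdiNAc, a chain end in which N-acetylgalactosamine takes the place of galactose, is made by the enzymes of B4GALNT3 and B4GALNT4. B4GALNT4 read 8.25, 8.31 and 8.79 on the +DOX arrays, against 8.99, 9.07 and 8.63 on the -DOX arrays. Replicates 1 and 2 of the +DOX group lay below every -DOX array, but +DOX replicate 3 lay above -DOX replicate 3, so the groups overlapped. The means were 8.45 ± 0.30 with doxycycline and 8.90 ± 0.23 without (SD, n = 3 each), 1.37-fold lower with doxycycline. The difference was -0.45 (SE 0.19, 95% confidence interval -0.91 to 0.02; limma, unadjusted p = 0.0558, adjusted p = 0.656), with a two-sided p of 0.2 by exact permutation. It ranked 45 by size among the 1259 probe sets.

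The sign of the B4GALNT4 difference held when any 1 array was left out, with values from -0.62 without +DOX replicate 3 to -0.35 without +DOX replicate 1. Without -DOX replicate 3 it was -0.58 (limma, adjusted p = 0.372). The spread among the +DOX arrays was wide: its SD there was larger than that of 99.2% of probe sets, and larger than that of 77.5% among the -DOX arrays. The probe set of B4GALNT4 carries the suffix that on Affymetrix arrays usually marks probes matching transcripts of more than 1 gene; the labels do not say whether that holds for this glycogene chip.

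B4GALNT3, the partner gene, had a difference near 0. It read 7.76, 7.82 and 7.73 on the +DOX arrays, against 7.73, 7.94 and 7.75 on the -DOX arrays. Replicate 2 was the highest of its group on either side and the groups overlapped. The difference was -0.04 (SE 0.07, 95% confidence interval -0.20 to 0.13; limma, adjusted p = 0.864), and without -DOX replicate 2 it was 0.03. Whether the differences of B4GALNT3 and B4GALNT4 were unequal was not tested.

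**Figure D4:**
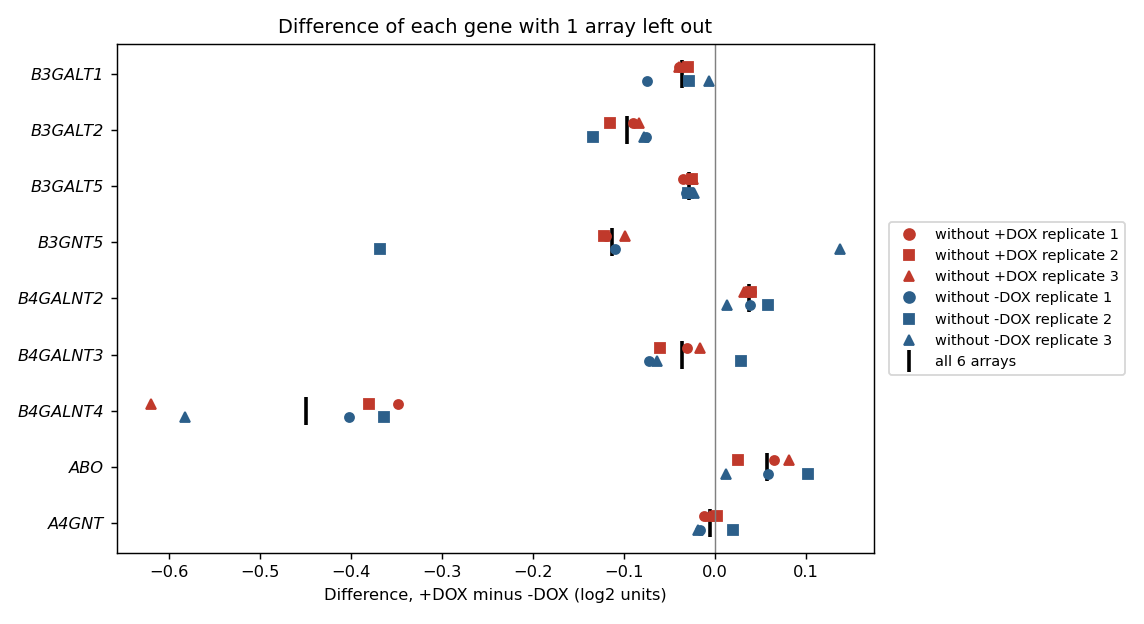
Difference in log2 expression, +DOX minus -DOX, for each gene with all 6 arrays (black bar) and with each single array left out (red symbols for +DOX arrays, blue for -DOX arrays; circle, square and triangle for replicates 1, 2 and 3). B4GALNT4 stayed between -0.62 and -0.35, whereas B3GNT5 ran from -0.37 to 0.14 on leaving out -DOX replicate 2 or 3.

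B4GALNT2 encodes the enzyme of the Sda antigen, which adds N-acetylgalactosamine to a sialylated galactose. It read 6.97, 6.97 and 6.99 on the +DOX arrays, against 6.95, 6.99 and 6.90 on the -DOX arrays. The +DOX arrays were tightly grouped, -DOX replicates 1 and 3 lay below them, and -DOX replicate 2 lay among them. The difference was 0.04 (SE 0.04, 95% confidence interval -0.05 to 0.13; limma, adjusted p = 0.734), so in these values a change of more than 1.09-fold in the upward direction lies outside the interval. Without -DOX replicate 3 it was 0.01. The mean of B4GALNT2 was above that of only 28.3% of probe sets. An unknown part of its signal may be background, so the interval does not bound the change of the transcript itself.

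ABO encodes the transferase that adds the A or B sugar to the H antigen, and A4GNT the enzyme that caps mucin chains of the gastric glands with alpha-linked N-acetylglucosamine. ABO read 7.61, 7.68 and 7.57 on the +DOX arrays, against 7.56, 7.65 and 7.47 on the -DOX arrays. In both groups replicate 2 was the highest and replicate 3 the lowest, and the groups overlapped. ABO was the gene of the 9 with the largest positive difference, 0.06 (SE 0.06, 95% confidence interval -0.09 to 0.21; limma, adjusted p = 0.740), and it was 0.01 without -DOX replicate 3. A4GNT read 6.97, 6.94 and 6.96 with doxycycline, against 6.94, 7.01 and 6.94 without. The +DOX values lay inside the -DOX range, and the difference was -0.0049 (SE 0.04; limma, adjusted p = 0.977). The mean of A4GNT was above that of only 28.2% of probe sets, so the same limit on background holds. The -DOX replicate 3 held the lowest of the 6 values for ABO, A4GNT and B4GALNT2, and the highest for B3GALT1, B3GALT5 and B3GNT5.

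For B3GNT5 and B4GALNT4, the genes of the 9 that spanned over 0.5 log2 units, the 3 named genes with the nearest profile over the 6 arrays were found from the root mean square distance between profiles, each centred on its own mean. For B3GNT5 they were FUT8, the core fucosyltransferase gene, at 0.0307 log2 units, PAPSS2, which makes the sulphate donor PAPS, at 0.0456, and the BMP receptor gene BMPR2 at 0.0558. The median distance over all other named genes was 0.310. FUT8 read 9.85, 9.84 and 9.85 on the +DOX arrays, against 9.94, 9.44 and 10.39 on the -DOX arrays, with replicate 2 lowest and replicate 3 highest as for B3GNT5. For B4GALNT4 the nearest were the cytokine gene LIF at 0.0821, the polycystin gene PKD1 at 0.0931 and the lysosomal alpha-glucosidase gene GAA at 0.127, where the median was 0.320. LIF read 10.79, 10.83 and 11.12 with doxycycline, against 11.52, 11.47 and 11.18 without, and differed by -0.48 (limma, adjusted p = 0.477). As LIF was taken for a profile like that of B4GALNT4, a similar difference follows from that choice and adds no support. These distances rest on 6 arrays in 2 groups and describe the profiles only. Over all probe sets -DOX replicates 2 and 3 were the least alike pair of arrays, with a correlation of 0.982. CSGALNACT2, a chondroitin enzyme gene, was also lowest on -DOX replicate 2, at 7.73, and highest on -DOX replicate 3, at 8.64. How many genes share this shape was not counted, so it is not read as particular to B3GNT5 and its 3 nearest genes.

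**Figure D5:**
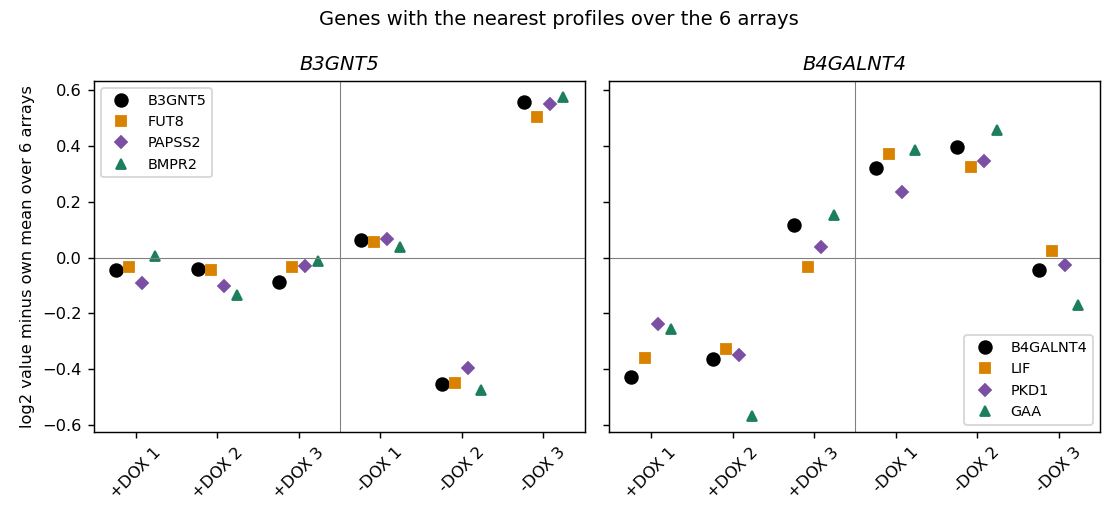
Log2 value minus the gene's own mean over the 6 arrays, for B3GNT5 (left) and B4GALNT4 (right, both black) and the 3 named genes nearest to each (coloured), by array. FUT8, PAPSS2 and BMPR2 share the low -DOX replicate 2 and high -DOX replicate 3 of B3GNT5, and LIF, PKD1 and GAA share the low +DOX replicates 1 and 2 of B4GALNT4. How many other genes share these shapes was not counted.

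The enzymes that act before, beside or after these 9 genes had 0 members past the threshold in each list. Type 2 chain and poly-N-acetyllactosamine genes, all 14 of them measured, had 8 higher and 6 lower with a median of 0.01, or 0.0062 without -DOX replicate 3. In that list GCNT2, the I-branching enzyme, was at -0.14 (unadjusted p = 0.0397 and adjusted p = 0.581 by limma) and B4GAT1, a glucuronyltransferase of O-mannose glycans, at 0.20, or 0.11 without that array. Of the mucin core enzymes 5 of 6 were measured, and their median was 0.0057, with 3 higher and 2 lower. Without -DOX replicate 3 that median was 0.09. Core 1 synthase C1GALT1 and its chaperone gene C1GALT1C1 were at 0.18 and 0.25, the second with its groups fully separated. The genes named from each list were taken for their small p, so full separation adds no support. Over the whole array 7.55% of probe sets were fully separated upward and 8.26% downward.

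Fucosyltransferases that make H and Lewis antigens on these chains were all measured, with 2 of 8 higher and 6 lower and a median of -0.03, which was -0.05 without -DOX replicate 3. FUT3, the Lewis enzyme that acts on type 1 chains, was at -0.08, with all +DOX arrays below all -DOX arrays by a gap of 0.023. FUT4 was at -0.27, or -0.15 without -DOX replicate 3. Sialyltransferases of chain ends had 4 of 8 higher and 4 lower, with ST6GALNAC5 at 0.17 and fully separated and ST6GAL1, which competes for the ends of type 2 chains, at -0.31, or -0.17 without that array. The relatives with other acceptors had 4 of 9 higher and 5 lower. Among them B3GALT6, a galactosyltransferase of the glycosaminoglycan linker, was at -0.10, or -0.18 without that array, and the chondroitin enzyme gene CSGALNACT2 was at -0.25, or -0.04 without it. Limma gave adjusted p-values of 0.477 or more for every gene of these lists.

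Of 18 genes that supply the donor sugars 16 were measured, with 12 of 16 higher and 4 lower and a median of 0.07, which was 0.02 without -DOX replicate 3. NAGK, the N-acetylglucosamine kinase, was at 0.57 with fully separated groups, and at 0.37 without that array. Of mucins that can carry the chains, 7 of 10 were measured, and their median was 0.0021, with 4 higher and 3 lower. Without -DOX replicate 3 the median turned to -0.02. MUC1 and MUC13 were at -0.13 and -0.07, both with all +DOX arrays below all -DOX arrays. Limma gave adjusted p-values of 0.478 or more for the donor genes and 0.673 or more for the mucins.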

How the data were processed

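The authors deposited 1 table of log2 values for 1259 probe sets on 6 Affymetrix-type glycogene arrays, made with RMA per the submitters' processing notes; the version, the chip definition and any later step are not given in the sources used here. Total RNA was extracted with Trizol and labelled as biotinylated cRNA, per the labels' protocols. Probe sets were named through RefSeq accessions in a gene table for GRCh38.p14: 1043 (82.8%) had 1 symbol, 190 carried no such accession and 26 an accession outside the table. Where a gene had several probe sets, the brightest over the 6 arrays stood for it. No coordinates or sequences were used.

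Groups were taken from the sample titles and compared in R 4.3.3 by the moderated test of limma 3.58.1 (a group-means model, two-sided, no replicate block), with Benjamini-Hochberg adjustment over 1259 probe sets and a threshold of 0.05; differences are +DOX minus -DOX. The fit was run on simulated data with independent noise of equal spread in both groups and no outlying array. That setting differs from these data, so the run checks the code only. No pair of arrays held identical values. Precision is limited by the number of arrays, the 95% interval of a difference having a median half-width of 0.152 log2 units.

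All 9 genes are named. Each further list, of the chain, core, fucose, sialic acid, relative, donor sugar and mucin genes, gives its 2 genes with the smallest p. A gene that this rule takes is not reported here. The genes and lists were chosen with earlier results of these data known. Alternatives were a replicate block, each array left out, centring, repeated quantile normalization, array weights, eBayes with trend and robust, and a filter on dim probe sets.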

Additional observations from a re-analysis of the deposited data

How the results depend on the processing

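None of the 9 genes passed the threshold under any alternative that was run. The replicate block, the trended eBayes fit and the dim filter leave a difference as it is; of the other 81 refitted differences 73 kept their sign and 8 turned. With array weights, A4GNT was at 0.0125, B3GALT1 at 0.0192 and B4GALNT3 at 0.0042. The weights of -DOX replicates 2 and 3 were 0.39 and 0.20, against 1.28 to 3.36 on the other arrays. Why the signs turned with array weights was not tested. After median centring A4GNT was at 0.0151. Centring shifts every difference by the same amount, set by medians of 7.609, 7.623 and 7.630 with doxycycline and 7.653, 7.644 and 7.625 without. Leaving out 1 array gave -0.018 to 0.020 for A4GNT, -0.37 to 0.14 for B3GNT5, -0.072 to 0.028 for B4GALNT3, -0.074 to -0.0059 for B3GALT1, 0.013 to 0.10 for ABO and 0.014 to 0.059 for B4GALNT2. The median of the 9 genes ran from -0.07 to -0.02 with 1 array left out, and was -0.02 after centring and 0.0042 with array weights. Array weights gave 5 genes higher and 4 lower, and called 1 probe set on the whole array. Leaving out 1 array gave 2 to 4 genes higher and 5 to 7 lower. It left 1 to 6 genes with groups that did not overlap, the 6 without -DOX replicate 2. Smaller groups overlap less often by construction. The share over all probe sets was not counted with an array left out, so nothing is read from these counts. A second quantile normalization left 0 genes without overlap. Leaving out dim probe sets removed the 3 galactosyltransferase genes, so it left 2 genes higher, 4 lower and 0 without overlap. At an unadjusted p of 0.05, 2 of the 9 genes were called with array weights, 2 with the trended eBayes fit, and 0 or 1 with an array left out; 258 probe sets were called without -DOX replicate 2 and 45 without +DOX replicate 1. With the replicate number as a block, 0 probe sets passed and 81 were under an unadjusted p of 0.05. The labels do not say that a replicate number marks a shared culture or day, so the numbers were not taken as pairs. Deviations of same-numbered arrays from their group means had correlations of -0.15, -0.04 and -0.16 for numbers 1, 2 and 3. With 3 arrays in each group, these correlations cannot decide whether the numbers mark pairs. Each of the 9 genes has 1 probe set, so averaging several was not run. The lowest adjusted p of B4GALNT4 was 0.149, with array weights, and the highest 0.903.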
